A study of Rattus norvegicus with 37 samples.

Results

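This comparison asked how the liver transcriptome of rats that swam after a contusion of the spinal cord (CONT SCI + SWIM) differed from that of rats with the same injury and no exercise (CONT SCI). Samples were chosen by their labels in the SCI + Exercise set, which gave 5 CONT SCI + SWIM and 4 CONT SCI livers, 9 of the 37 samples of the series and of the 22 of that set. All 9 rats were female Sprague Dawley, an outbred stock with no engineered allele, with an estimated age of 8 to 9 weeks at injury and a body weight of 235 to 249 g. Both groups had a laminectomy and a moderately severe 25 g-cm contusion at level T2 with the NYU Impactor under anaesthesia, and received gentamicin, buprenorphine and manual bladder expression. Both lived 2 per tiny cage, a small cage that restricts movement, so some rats of a group shared a cage, and the labels do not say which. The swimming rats trained 5 days per week, with 15 minutes of swimming per session in 3 bouts of 5 minutes and with sessions in the morning and the afternoon. By the labels, training began on day 10 and lasted 8 weeks, and livers of both groups were taken 11.5 weeks after injury. The study's own text differs from the labels for the swimming rats, with a later start, a longer training period and a later collection of the liver than in the CONT SCI rats. By that account swimming and the time since injury cannot be told apart in any of the differences below. Each rat gave 1 library of polyadenylated RNA from 200 mg of liver, and the rat was the replicate.

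The liver receives sympathetic nerves from the thoracic cord and parasympathetic fibres from the vagus, and an injury high in the thoracic cord can interrupt, in part or wholly, the descending control of the sympathetic part while the vagus is spared. The liver supplies glucose during exercise by breaking down glycogen and by making new glucose, and it handles the fatty acids, lactate and amino acids that working muscle draws on or releases. It also secretes most plasma proteins, and for that reason a small number of secreted-protein transcripts makes up much of liver mRNA. The deposited table names genes by Ensembl identifiers and does not pair them with symbols, and 0 of its 24613 identifiers could be matched to a name with the reference tables used here. Pathways and marker lists were therefore not counted, the labelled tissue was not checked against hepatocyte markers, and genes are described by identifier, level and pattern over the rats. In bulk tissue, fewer cells of a type and less RNA per cell cannot be told apart.

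The libraries held between 26190364 and 36607354 counted reads in the SWIM rats and between 28427149 and 35765326 in the CONT SCI rats, so depth overlapped between the groups. SWIM replicate 3 stood apart, with 13648 genes detected at 1 read or more against 14951 to 15361 in the other SWIM rats and 15429 to 15573 in the CONT SCI rats. In the study's alignment summary, this library also had the lowest aligned share of the series, with uniquely and multiply mapped reads combined. By that combined share, every SWIM library aligned less well than every CONT SCI library, while the uniquely mapped shares overlapped. Library quality thus ran with the groups, and its part in the differences below was not tested. All 5 SWIM rats had fewer detected genes than any CONT SCI rat, although 12983 genes had at least 1 read in all 9 rats. Of the 17569 genes with a read in any of the 9 rats, 36 had a read in every CONT SCI rat and in no SWIM rat. In the opposite direction there was 1 gene. At 10 or more reads, 0 genes in either direction were present in every rat of 1 group and in none of the other. Without SWIM replicate 3 these counts at 1 read were 40 and 5 genes. The part of depth in these low counts was not tested.

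The SWIM rats were more unlike each other than the CONT SCI rats were. Distances were measured on rlog values, a log2 scale on which low counts are damped, over all genes. The distance of a rat from the mean of its group was 18.5, 26.3, 25.1, 17.6 and 20.8 in SWIM replicates 1 to 5 and 14.5, 17.5, 15.1 and 14.7 in CONT SCI replicates 1 to 4. Every SWIM rat lay farther from its group mean than any CONT SCI rat. The group means were 21.7 ± 3.89 (SD, n = 5) and 15.5 ± 1.37 (SD, n = 4), a difference of 6.23 (exact two-sided permutation p = 0.0317, where 0.00794 is the smallest this design allows). Without SWIM replicate 3 the difference was 5.09 (exact permutation p = 0.0286). When any 1 rat was left out, the difference ranged from 4.58 to 7.41 and the exact p from 0.0286 to 0.0714. The exact p was above 0.05, which ended the call, without SWIM replicate 1 or 5 or without CONT SCI replicate 1, 3 or 4. With 1 rat fewer there are fewer labellings, so the exact p moves in coarser steps. Without a SWIM rat, 0.0286 is the smallest it can be. Over only the 500 genes of highest variance the difference was 2.67 (exact permutation p = 0.103), which also ended the call.

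The separation between the groups was small beside this spread. Pairs of SWIM rats lay 30.7 apart on average (10 pairs), pairs of CONT SCI rats 21.8 (6 pairs), and pairs with 1 rat of each group 28.6 (20 pairs). All 4 CONT SCI rats had another CONT SCI rat as their nearest neighbour. Of the 5 SWIM rats, replicates 3 and 5 had a SWIM rat nearest, and replicates 1, 2 and 4 had a CONT SCI rat nearest. Of the total squared distance, 18.2% lay between the groups (exact one-sided permutation p = 0.103), which did not pass 0.05. Without SWIM replicate 2, the rat farthest from its group mean, the share was 24.5% (exact permutation p = 0.0286), and without SWIM replicate 3 it was 21.6% (exact permutation p = 0.0571). The first principal component, with 32.3% of the variance, ran mostly among SWIM rats, from -20.0 in replicate 2 to 19.7 in replicate 3, and all 4 CONT SCI rats lay between -9.82 and 2.98. The second, with 19.1%, was 3.53 to 10.7 in the SWIM rats and -13.3 to -3.31 in the CONT SCI rats, without overlap. This component was picked after its values were seen and is given as a description.

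**Figure D1:**
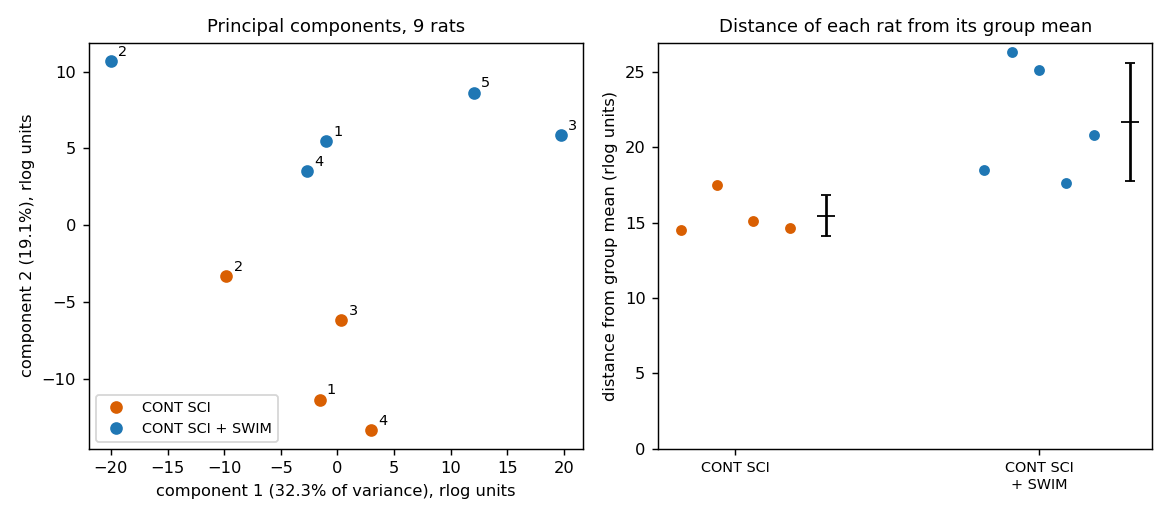
Left, scores of the 9 rats on the first and second principal components of rlog values, with the replicate number beside each point, and right, the distance of each rat from its group mean in rlog units (points are rats, the bar is the mean ± SD). SWIM replicates 2 and 3 lie at opposite ends of component 1, and the 5 SWIM distances of 17.6 to 26.3 all exceed the 4 CONT SCI distances of 14.5 to 17.5.

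The wider spread was seen across many genes. Of 9306 genes with a mean of at least 100 counts, 7063 (75.9%) had a larger SD of log2(CPM + 1) in the SWIM rats than in the CONT SCI rats, where CPM is the count scaled to a common library size with TMM, a method that corrects for composition. The median SD was 0.230 in SWIM and 0.154 in CONT SCI. Without SWIM replicate 3 the SD was larger in SWIM for 6519 of these genes (70.1%), and its median was 0.210. Genes are not independent, so no test is given for this count. With the whole SCI + Exercise set scaled together, the median SD was 0.227 in SWIM, 0.195 in the rats that walked in shallow water after the contusion (CONT SCI + SWW), 0.227 in the uninjured rats (No SCI), 0.259 in the rats with a transection (TX SCI) and 0.154 in CONT SCI. CONT SCI was thus the most uniform of the 5 groups, and SWIM was at the level of the uninjured rats. No single SWIM rat was farthest from the SWIM median for most of these genes. The farthest rat was replicate 3 for 28%, replicate 2 for 27.3%, replicate 5 for 17.2%, replicate 1 for 16.3% and replicate 4 for 11.2%. This tally does not weigh how far each rat lay. Among the 10 genes with the largest SD in the SWIM rats (1.53 to 2.81), replicate 3 was farthest from the median in 5 and replicate 5 in 3.

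Of 12502 genes tested with edgeR's quasi-likelihood test, 1 passed an adjusted p of 0.05 (0.008%), and it was lower after swimming. At an adjusted p under 0.1 there were 18 genes (0.144%), 7 higher (0.056%) and 11 lower (0.088%) in SWIM. The 7 higher genes had log2 fold changes of 0.58 to 1.68 (median 0.81), and all had a mean of at least 100 counts. The 11 lower genes ran from -8.01 to -0.52 (median -0.71), and 9 of them had a mean of at least 100 counts. All 18 had values that did not overlap between the groups. A choice by small p in the same rats favours such genes, so this is no separate support. Of all genes tested, 732 did not overlap (5.86%), of which 307 were higher (2.46%) and 425 lower (3.4%). At an unadjusted p under 0.05 there were 1638 genes (13.1%), 944 higher (7.55%) and 694 lower (5.55%). The p-values were not evenly spread, with 2662 genes under 0.1 and 918 over 0.9.

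Most differences were small and the data bounded them. The median log2 fold change was 0.02, with quartiles of -0.15 and 0.20, and the median SE was 0.18. For 10138 genes (81.1%) the 95% interval lay wholly between -1 and 1 on the log2 scale. Only 8 genes differed by more than 2 on that scale, 3 higher and 5 lower. All 5 of the lower ones had a mean under 100 counts, and in 4 of them a single CONT SCI rat held most of its group's summed value. Of the 3 higher ones, 2 had a mean under 100 counts, and in 1 a single SWIM rat held most of its group's summed value. The count of genes called depended on the tool. DESeq2 called 254 genes (122 higher, 132 lower), among which were all 18 genes above, and limma voom with sample quality weights called 21 (10 higher, 11 lower), 15 of them among the 18. Of the 254, 226 were among the genes that edgeR tested, and each of these had an unadjusted edgeR p under 0.05. Among them, 191 did not overlap between the groups, against 5.86% of all genes tested. A choice by small p in the same rats favours both, so neither is separate support.

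**Figure D2:**
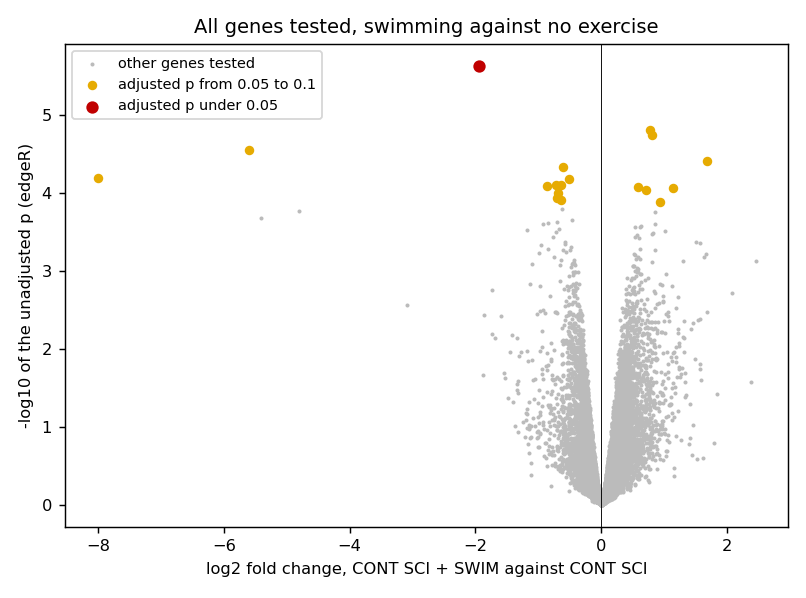
Each point is 1 of the 12502 genes tested, with the log2 fold change of CONT SCI + SWIM against CONT SCI on the x axis and -log10 of the unadjusted edgeR p on the y axis. The red point is the 1 gene with an adjusted p under 0.05, at -1.95, and yellow points have an adjusted p of 0.05 to 0.1.

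The gene that passed, ENSRNOG00000048576, was lower in every swimming rat. Its level was 2.64, 3.40, 5.58, 5.50 and 5.55 CPM in SWIM replicates 1 to 5 and 14.2, 22.0, 17.9 and 16.0 CPM in CONT SCI replicates 1 to 4. The highest SWIM rat stood well under the lowest CONT SCI rat, and replicates 3, 4 and 5 were nearly equal. The means were 4.54 ± 1.41 (SD, n = 5) and 17.5 ± 3.34 CPM (SD, n = 4), and the gene fell by 1.95 on the log2 scale (SE 0.23, 95% interval -2.45 to -1.45, edgeR adjusted p = 0.0291). These levels rest on 76 to 212 reads per SWIM rat and 487 to 748 per CONT SCI rat, so counting error was small beside the spread between rats. Without 1 rat the log2 fold change stayed between -2.04 and -1.81. The edgeR adjusted p stayed under 0.05 without SWIM replicate 1 or CONT SCI replicate 1 and lay between 0.0545 and 0.115 without any other rat, the highest being without CONT SCI replicate 4.

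**Figure D3:**
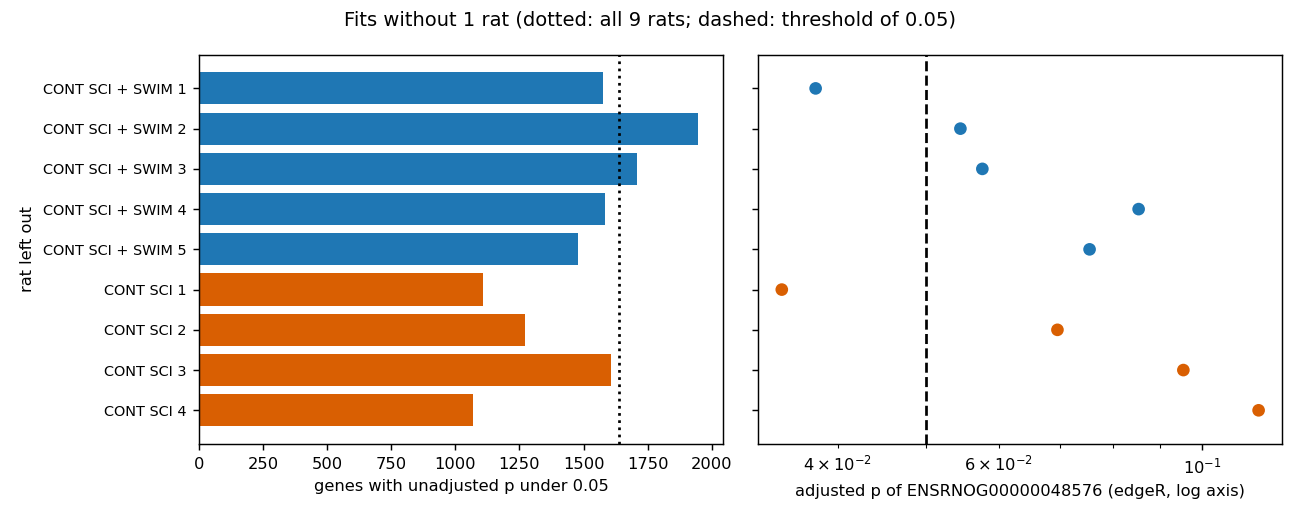
Each row is an edgeR fit without the rat named at the left (blue SWIM, orange CONT SCI). Left, the number of genes with an unadjusted p under 0.05, from 1067 to 1948, with all 9 rats as a dotted line, and right, the adjusted p of ENSRNOG00000048576 on a log axis, under the dashed line at 0.05 in 2 of the 9 fits.

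Genes with at least 100 counts on average and no overlap between the groups were ranked by p, and the first 12 per direction were taken. The 12 higher genes had log2 fold changes of 0.54 to 1.68 (median 0.80) with edgeR adjusted p from 0.0749 to 0.115, and the 12 lower genes -1.95 to -0.46 (median -0.67) with 0.0291 to 0.115. The first of the higher genes, ENSRNOG00000030721, was at 14.2, 16.2, 15.2, 13 and 14.8 CPM in the SWIM rats and at 8.53, 9.12, 8.49 and 8.06 CPM in the CONT SCI rats. The difference was 0.78 on the log2 scale (SE 0.11, edgeR adjusted p = 0.0749), and the ranges did not overlap. The next, ENSRNOG00000005624, was at 13.9, 12.96, 13.7, 13.8 and 13.7 CPM after swimming, the most even of the 4 genes shown, and at 7.43, 7.20, 9.23 and 7.17 CPM without exercise. It differed by 0.81 (SE 0.12, edgeR adjusted p = 0.0749), with CONT SCI replicate 3 above the other CONT SCI rats. ENSRNOG00000002597, second of these lower genes by the naming rule, was at 67.4, 59.8, 70.8, 61.4 and 56.1 CPM in the SWIM rats and at 98.1, 91.3, 100.5 and 96.2 CPM in the CONT SCI rats. All 5 SWIM rats were below all CONT SCI rats, by -0.61 on the log2 scale (SE 0.10, edgeR adjusted p = 0.0818). None of these 3 genes passed 0.05 with edgeR on the 9 rats. All 3 passed with DESeq2 (adjusted p from 2.60e-07 to 1.12e-05) and with limma voom and sample quality weights (adjusted p from 0.0285 to 0.0292), and ENSRNOG00000030721 also passed in the edgeR fit of all 5 groups of the set (adjusted p = 0.0346). Without 1 rat, the edgeR adjusted p of the 3 genes ran from 0.0702 to 0.283.

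The same genes were then read in the other groups of the set, scaled together over 22 samples. By the labels, the TX SCI livers were taken sooner after injury than those of the other injured groups. Transection and time since injury therefore cannot be told apart in the TX SCI rats. By the study's own text, both trained groups, SWIM and SWW, had their livers taken later than the CONT SCI rats. By that account training and time since injury cannot be told apart in either of them. ENSRNOG00000048576 averaged 4.56 ± 1.41 CPM in SWIM (n = 5), 5.66 ± 1.45 in SWW (n = 5), 6.87 ± 2.15 in TX SCI (n = 4), 11.1 ± 2.79 in No SCI (n = 4) and 17.8 ± 3.37 in CONT SCI (n = 4), with SD throughout. CONT SCI was the highest group, and its lowest rat at 14.5 CPM was above the highest No SCI rat at 13.8. Tested against No SCI, CONT SCI differed by 0.68 on the log2 scale and did not pass (edgeR adjusted p = 0.754). ENSRNOG00000030721 averaged 14.8 ± 1.27 CPM in SWIM, 15.0 ± 1.88 in SWW, 15.2 ± 4.06 in TX SCI, 9.10 ± 0.433 in No SCI and 8.66 ± 0.466 in CONT SCI. ENSRNOG00000005624 averaged 13.7 ± 0.298, 13.4 ± 1.33, 11.7 ± 4.09, 7.97 ± 1.99 and 7.86 ± 0.973 CPM in the same order. For both, the 2 trained groups lay together and the No SCI and CONT SCI rats lay together, while the TX SCI rats, which did not train either, were split. In 3 of the 4 TX SCI rats the levels were 15.8 to 19.03 and 12.8 to 14.3 CPM, at the level of the trained groups, and the remaining rat was at 9.47 and 5.62 CPM. ENSRNOG00000002597 averaged 63.4 ± 5.24, 74.98 ± 13.4, 72.1 ± 12.4, 82.7 ± 20.5 and 97.8 ± 3.85 CPM. SWIM lay wholly below CONT SCI, as the choice of this gene required. The untrained TX SCI rats, at 61.4 to 85.6 CPM, also lay wholly below CONT SCI, while SWW and No SCI overlapped it.

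**Figure D4:**
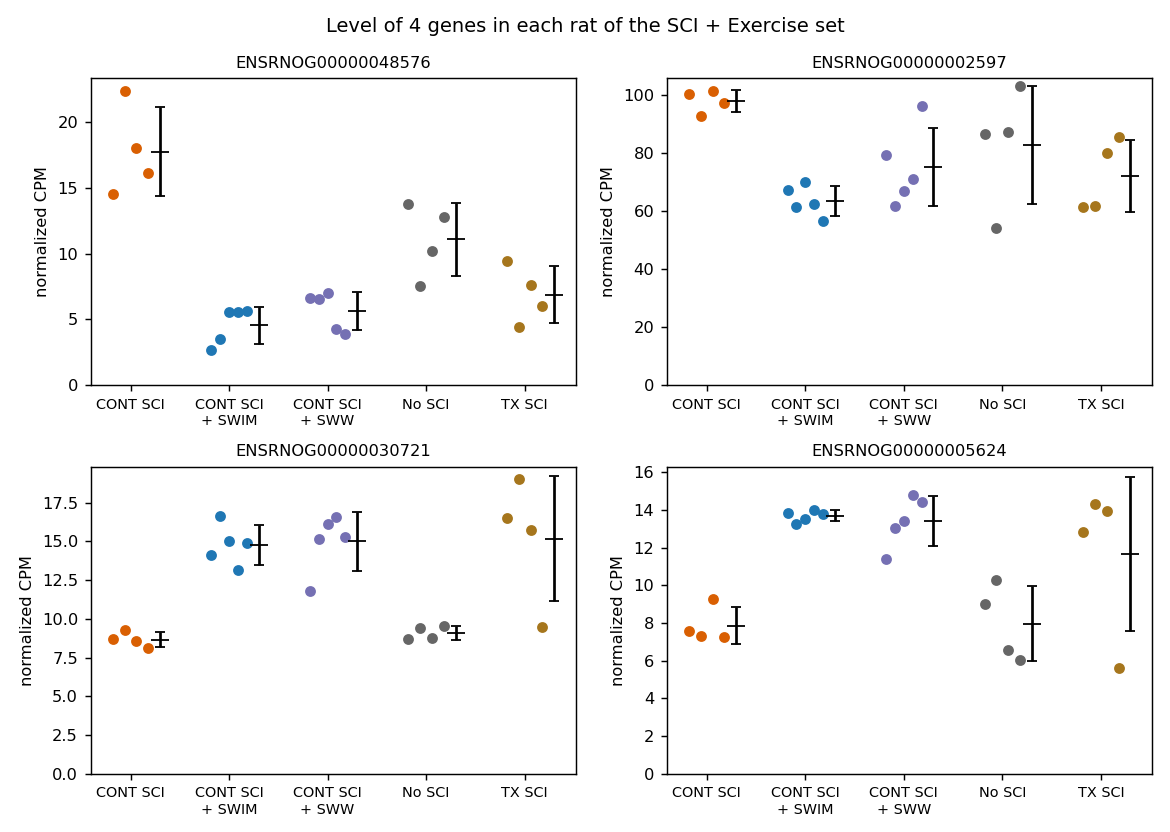
Normalized CPM of 4 genes in each of the 22 rats of the SCI + Exercise set, with points as rats and the bar as the mean ± SD of the group. SWIM and CONT SCI do not overlap for any of the 4 genes, which follows from how the genes were chosen. ENSRNOG00000048576 is highest in CONT SCI at 17.8 CPM on average.

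Swimming was compared directly with shallow water walking, because both groups were set against the same 4 CONT SCI rats and those comparisons are not independent. Between SWIM and SWW, 0 of 12525 genes passed an adjusted p of 0.05 with edgeR. At an unadjusted edgeR p under 0.05 there were 680 (5.43%), with 361 higher (2.88%) and 319 lower (2.55%) in SWIM. This count depended on single rats, with 1626 of 12609 genes without SWIM replicate 2 and 427 of 12640 without SWIM replicate 5. DESeq2 called 14 genes (5 higher, 9 lower in SWIM). The difference between the 2 trained groups was -0.31 for ENSRNOG00000048576 (95% interval -0.85 to 0.23), -0.02 for ENSRNOG00000030721 (-0.27 to 0.23), 0.03 for ENSRNOG00000005624 (-0.19 to 0.25) and -0.24 for ENSRNOG00000002597 (-0.52 to 0.04) on the log2 scale. The intervals were narrowest for ENSRNOG00000030721 and ENSRNOG00000005624 and left room for a larger difference in the other 2 genes. Against CONT SCI, the SWW rats differed by -1.63, 0.81, 0.79 and -0.36 for these genes in that order (edgeR adjusted p = 0.0162, 0.0268, 0.0268 and 0.138). SWIM set against No SCI gave -1.26, 0.72, 0.80 and -0.36 (edgeR adjusted p = 0.154, 0.148, 0.167 and 0.483), and none of these passed.

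The injured, unexercised rats in tiny cages of the SCI + In-Cage Activity set are the nearest condition outside this set. They were sequenced in another sample set, so levels between the sets are given side by side and were not tested. With all 37 samples scaled together, ENSRNOG00000048576 was at 2.30 to 10.2 CPM in those 5 rats, against 14.03 to 21.3 in the CONT SCI rats and 2.52 to 5.42 in the SWIM rats. ENSRNOG00000005624 was at 10.9 to 15.9 CPM there, against 6.89 to 8.81 in CONT SCI and 12.7 to 13.5 in SWIM. For both genes, the unexercised rats of the other set lay nearer to the swimming rats than to the unexercised rats of this set. However, ENSRNOG00000005624 also differed between the sets without injury. It was at 15.2 to 24.8 CPM in the uninjured In-Cage rats, housed in standard cages, and at 5.77 to 9.71 in No SCI. For ENSRNOG00000048576 these uninjured ranges overlapped, at 10.8 to 16.4 and 7.16 to 13.3 CPM. Sample set and cage size cannot be told apart in these uninjured rats. ENSRNOG00000002597 was at 77.4 to 111.9 CPM there, around the CONT SCI range of 88.6 to 96.8 and above the SWIM range of 54.8 to 68.7. ENSRNOG00000030721 was at 1.66 to 3.74 CPM there, below every rat of the SCI + Exercise set, so its level differed more between the sets than between SWIM and CONT SCI.

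The direction of the differences ran with the level of the gene, in CPM without correction for gene length. The 120 genes with a mean of 1000 CPM or more had 77.5% of their log2 fold changes below 0 with TMM scaling, a median log2 fold change of -0.17, and 28 lower against 2 higher genes at an unadjusted p under 0.05. Of the 1033 genes at 100 to 1000 CPM, 63.6% were below 0, with 145 lower and 42 higher at that threshold. At 10 to 100 CPM there were 562 higher and 366 lower of 5541 genes, at 1 to 10 CPM 289 higher and 127 lower of 4351, and under 1 CPM 49 higher and 28 lower of 1457. Adjusted for all genes, none of the 10 with the highest counts passed (smallest edgeR adjusted p = 0.173), 7 of them being below 0 and 3 above.

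Per rat, these 120 genes of highest level took 53.1%, 51.4%, 53.4%, 52.2% and 50.4% of counted reads in SWIM replicates 1 to 5 and 54.7%, 54.6%, 55.3% and 55.2% in CONT SCI replicates 1 to 4. Every SWIM rat was below every CONT SCI rat. This share uses raw counts and does not depend on the scaling. The genes were grouped after the relation was seen, so no test is given. In the other groups the same genes took 52.7% to 55.6% in SWW, 52.5% to 55.0% in No SCI and 51.1% to 54.2% in TX SCI, so CONT SCI was at the upper end of the set and SWIM at its lower end. The TMM factors, which offset such shifts in composition, did not overlap either, at 0.978 to 1.061 in SWIM and 0.942 to 0.964 in CONT SCI, with SWIM replicate 3 lowest in its group. With scaling by library size alone, the median over all genes moved from 0.02 to 0.14, and the split at an unadjusted p under 0.05 moved from 944 higher of 1638 to 2025 higher of 2232. The median of the 120 genes was then -0.05, and 72 of them were below 0 and 48 above, against 93 and 27 with TMM, so how many of them counted as lower depended on the scaling. Without any 1 rat the median of the 120 genes stayed between -0.20 and -0.16 with TMM.

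**Figure D5:**
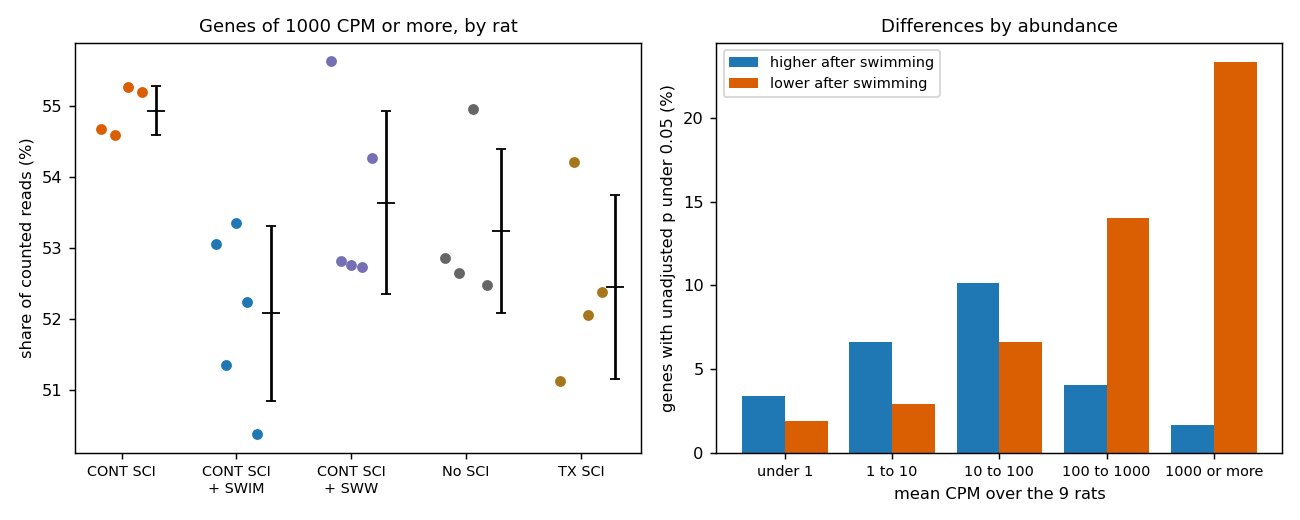
Left, the share of counted reads taken by the genes with a mean of 1000 CPM or more in each rat of the SCI + Exercise set (axis not from 0, bar is the mean ± SD), with SWIM at 50.4% to 53.4% and CONT SCI at 54.6% to 55.3%. Right, the percentage of genes in each range of mean CPM with an unadjusted edgeR p under 0.05 after TMM scaling, by direction, where lower genes outnumber higher ones from 100 CPM upward.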

How the data were processed

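Condition and replicate number were taken from the sample labels. The authors aligned reads to the rat genome build Rn6 with STAR, counted them on Ensembl genes with HTSeq after FastQC 0.10.1, and deposited raw counts per gene and sample without normalization. Mitochondrial genes had been left out by the authors. The 9 columns entered the quasi-likelihood test of edgeR 4.0.16 under R 4.3.3 (robust glmQLFit, glmQLFTest, TMM scaling). Low genes were removed by filterByExpr, set to 10 for the count and 15 for the total, and p-values of the 12502 genes left were adjusted by Benjamini-Hochberg with a threshold of 0.05. CPM values and their SDs are those after TMM scaling, and an SE is the log2 fold change divided by the square root of F. DESeq2 1.42.0 served as a second test and for rlog and vst transformation, and limma 3.58.1 gave voom with sample quality weights. The share of squared distance between the groups was tested by exact permutation of the 9 labels. For the spread, the 9 distances were permuted, with the group means kept as fitted under the true labels.

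Total counts ran from 26190364 to 36607354 per rat. All 16 pairs of rats within a group differed by more than sampling noise (lowest reduced chi-square 37.9), so each rat counted as 1 sample, and the number of rats limits the precision more than depth does. The groups, gene lists and naming rule were chosen with earlier results of these data known. The rule took every called gene and, ordered by p, 12 higher and 12 lower genes whose groups did not overlap and whose mean count reached 100. As identifiers could not be matched to names, at most 2 per direction are printed and the planned gene lists and marker checks were not analysed here. The scripts were tested on simulated data. Alternatives were other tests, scalings, filters, sets of samples in the model, a block for the replicate number, and omission of each rat in turn.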

Additional observations from a re-analysis of the deposited data

Results flagged for a closer look

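Of 22 groups of values tested for a sample that lies apart from the rest (Dixon's criterion), 4 met it. Chance alone flags about 1 group in 20. SWIM replicate 3 had 13648 genes detected, below the other SWIM rats, and a TMM factor of 0.978, also below them. SWIM replicate 2 was lowest for ENSRNOG00000005624 at 12.96 CPM in a group whose other rats lay within 13.7 to 13.9 CPM. For the same gene, CONT SCI replicate 3 was highest at 9.23 CPM, still below every SWIM rat.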

How the results depend on the processing

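The count of genes called moved most. From 1 gene with edgeR it went to 254 with DESeq2, 21 with limma voom, 10 when the fit took in the 5 groups of the SCI + Exercise set, and 23 (20 higher, 3 lower) with scaling by library size alone, an alternative chosen after seeing the data. It was 1 with RLE scaling and 1 without a filter on low counts, and ranged from 0 to 2 when 1 rat was left out. Without CONT SCI replicate 2, the 1 gene called was not ENSRNOG00000048576. For SWIM against SWW, DESeq2 called 14 genes and leaving out 1 rat gave 0 to 1. The cause of these changes was not tested. The share of squared distance between the groups was 17.6% with genes scaled to unit variance (exact permutation p = 0.0238) and 16.7% to 24.5% without 1 rat. The difference in distance from the group mean was 2.67 over the 500 genes of highest variance (exact permutation p = 0.103) and 4.58 to 7.41 without 1 rat. Over the 16 alternative settings, ENSRNOG00000048576 passed 0.05 in 9, ENSRNOG00000030721 in 4, ENSRNOG00000005624 in 3 and ENSRNOG00000002597 in 2, and with 1 of the 9 rats left out in 2, 0, 0 and 0. Their direction was fixed by the choice of genes without overlap.

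Replicate numbers are shared between the groups, except SWIM replicate 5, which has no partner. The deviations of same-numbered rats correlated at -0.159, 0.475, 0.102 and -0.0737, so 2 of 4 pairs were over 0.1 and the numbers were not taken to pair the rats. With the replicate block, edgeR called 7 genes (2 higher, 5 lower), and the share of squared distance over replicates 1 to 4 was 19.4% (exact permutation p = 0.125, the smallest that 16 exchanges allow). In 1 of the 4 pairs a rat correlated best with its own number. Gene lists were not counted under any setting, since no identifier could be matched to a name.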
